A study of Homo sapiens with 6 samples.

Results

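Levels of 93 nuclear genes that encode subunits of the oxidative phosphorylation complexes, or cytochrome c, were examined among the 58735 gene rows of a deposited expression table from Huh7, a human liver cancer cell line. The 93 genes were taken by symbol among protein-coding genes: the NDUFA, NDUFB, NDUFC, NDUFS and NDUFV series, SDHA to SDHD, the UQCR series, COX4 to COX8, the ATP5 series, CYC1 and CYCS. Placed by complex, 38 belonged to complex I, 4 to complex II, 10 to complex III, 19 to complex IV and 21 to complex V, with CYCS as the mobile carrier. NDUFA4 and its relative NDUFA4L2 were placed with complex IV, where the NDUFA4 protein is known to sit, and 2 read-through genes and 2 single-exon copies (UQCRHL and ATP5MGL) were kept because the symbols match. ATP5S, which encodes factor B, was also kept, although it is not a fixed subunit of the enzyme. The libraries came from cells carrying a control short hairpin RNA (shcontrol, genotype control, 3 libraries) or a short hairpin RNA against TRIM15 (shTRIM15, TRIM15 knockdown, 3 libraries). All 6 were grown in the same RPMI-1640 medium with fetal bovine serum, and the number of hairpins used is not stated in the labels. The labels do not say whether replicates were separate cultures, so p-values measure the spread between these libraries, which may be technical. TRIM15 encodes a protein of the tripartite motif family of ubiquitin ligases.

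Oxidative phosphorylation makes much of the ATP of most cells. Complex I and complex II pass electrons from NADH and succinate to coenzyme Q, complex III passes them on to cytochrome c, and complex IV hands them to oxygen. Complexes I, III and IV pump protons across the inner mitochondrial membrane, and complex V, the ATP synthase, uses the returning protons. Every complex except complex II mixes subunits encoded in the nucleus with subunits encoded in mitochondrial DNA, and liver cells are rich in mitochondria. Nuclear respiratory factor 1 (NRF1), the ETS factor GABP and YY1 are known regulators of many of the nuclear genes.

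Promoter windows of 3 members are shown first, because SDHD (the succinate dehydrogenase membrane anchor), CYCS (cytochrome c) and ATP5MPL (a small membrane subunit of ATP synthase, RefSeq symbol ATP5MJ) were lower in knockdown under every setting tried. They were chosen after the values were seen. Each window runs 5′ to 3′ on the gene's strand from 250 bases before to 50 bases after the RefSeq start (GRCh38.p14). Capitals mark exact matches to any of 3 motifs searched on both strands: NRF1 (GCATGCGC), ETS (CCGGAAGT) and YY1 (AAGATGGCG).
SDHD, chr11:112086623-112086922, plus strand: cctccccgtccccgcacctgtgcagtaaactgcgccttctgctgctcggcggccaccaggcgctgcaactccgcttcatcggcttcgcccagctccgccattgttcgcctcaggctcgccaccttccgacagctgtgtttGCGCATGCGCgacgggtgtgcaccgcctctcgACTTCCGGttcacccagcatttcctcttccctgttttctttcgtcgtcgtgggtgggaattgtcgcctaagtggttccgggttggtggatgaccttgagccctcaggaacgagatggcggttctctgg
CYCS, chr7:25125211-25125510, minus strand: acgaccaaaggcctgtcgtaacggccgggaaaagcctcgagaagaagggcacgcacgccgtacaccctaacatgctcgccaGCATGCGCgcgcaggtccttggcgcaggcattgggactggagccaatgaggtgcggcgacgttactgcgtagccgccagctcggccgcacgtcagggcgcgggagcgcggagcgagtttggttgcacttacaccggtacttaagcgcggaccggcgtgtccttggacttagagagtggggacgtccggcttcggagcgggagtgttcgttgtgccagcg
ATP5MPL, chr14:103921480-103921779, minus strand: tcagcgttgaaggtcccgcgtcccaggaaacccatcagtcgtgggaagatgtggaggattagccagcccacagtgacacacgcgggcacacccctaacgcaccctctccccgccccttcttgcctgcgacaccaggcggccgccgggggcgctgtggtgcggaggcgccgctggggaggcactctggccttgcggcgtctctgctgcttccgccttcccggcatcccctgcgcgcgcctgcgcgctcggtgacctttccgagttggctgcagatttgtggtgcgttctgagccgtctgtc
Counted from 1 at the 5′ end, the SDHD window held NRF1 letters at 141 to 148 and, overlapping them on the other strand, at 143 to 150, and ETS letters at 173 to 180. The CYCS window held NRF1 letters at 82 to 89. The ATP5MPL window held none of the 3 motifs. It lies inside the deposited span of that gene, which starts upstream at 103928269, and letters around that start were not searched.

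RefSeq promoter windows were matched for 74 of the 93 members and for 68 of the 83 members tested (81.9%). No entry was given for COX6C and COX7A1. NRF1 letters stood in 12 of the 68 windows (17.6%), against 4.26% of 15842 protein-coding promoter windows and 5.76% of the 9609 windows of tested genes. ETS letters stood in 11 (16.2%, against 6.19% and 9.36%), and YY1 letters in 9 (13.2%, against 2.74% and 4.12%). At least 1 motif stood in 26 of the 68 (38.2%, against 12.2% and 17.7%). Of the 9 lower members with a window, NRF1 letters stood in 2 (SDHD and CYCS), ETS letters in 3 (SDHD, UQCRH and ATP5PF) and YY1 letters in 1 (ATP5PF). Both higher members with a window, NDUFA8 and SDHB, held NRF1 letters, and SDHB also held YY1 letters. Of the 57 windows of members that did not pass the test, 8, 8 and 7 held the NRF1, ETS and YY1 letters. A match is a run of letters and not evidence of binding.

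In total, 17332508 to 19556855 reads per library were counted back from the table, and every value came out as a whole number of reads (tolerance 0.01 read). The targeted gene, TRIM15, had 5.05 ± 0.147 FPKM with the control hairpin and 2.62 ± 0.563 FPKM with the hairpin against it (SD, n = 3). Knockdown stood at 51.8% of control (log2 fold change -0.75, SE 0.106, limma adjusted p = 0.00416; two-sided exact permutation p = 0.1, the smallest that 3 against 3 libraries allow). All 17 hepatocyte and Huh7 markers were at testable levels, with ALB at 914 and AFP at 202 FPKM. Of these, 6 were lower in knockdown and 0 higher by limma (6 and 3 at an unadjusted p under 0.05, 6 and 3 by voom). The share of lower markers by limma was thus 35.3%. Across the 14847 genes in the same fit, lower calls made up 10.1% and higher calls 8.93%. With voom, 28.2% of those genes were called in either direction. The summed level of the 17 markers was 3163 to 3184 FPKM in control and 3000 to 3052 in knockdown libraries. All 6 endothelial markers, 5 of 8 fibroblast markers and 6 of 8 immune markers stayed below 0.5 FPKM in every library, and THY1, CDH5, CLEC14A and MS4A1 were at 0. The fibroblast list summed to 62.5 to 66.2 FPKM in control and 55.6 to 57.8 in knockdown libraries, most of it LUM (54.1 FPKM on average). Of the 3 fibroblast markers tested, 2 were lower and 0 higher, both by limma and by voom. The part of these markers in the results on subunits was not tested. In bulk RNA, fewer cells of a kind and less RNA per cell cannot be told apart.

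Of the 93 members, 83 had at least 0.5 FPKM (fragments scaled to gene length and to library size) in 3 or more of the 6 libraries and were tested. Among tested members, mean levels ran from 0.469 FPKM for the complex I accessory gene NDUFA7 to 432 FPKM for ATP5F1B, the catalytic beta subunit of ATP synthase. The most abundant gene of each other complex was NDUFS5 in complex I (352 FPKM), SDHB in complex II (37.1), UQCRH in complex III (125) and COX6B1 in complex IV (253). The least abundant tested genes were SDHC (7.95) in complex II, UQCRHL (2.23) in complex III, COX7A1 (0.576) in complex IV and ATP5MPL (10.96) in complex V. The middle member of complex II had 16.8 FPKM, below the medians of tested members of complex I (24.5), complex V (43.9), complex III (57.9) and complex IV (75.8). These levels are per base of the deposited gene length, which counts all annotated exons of a gene. A gene with long rare transcripts can therefore read low.

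**Figure D1:**
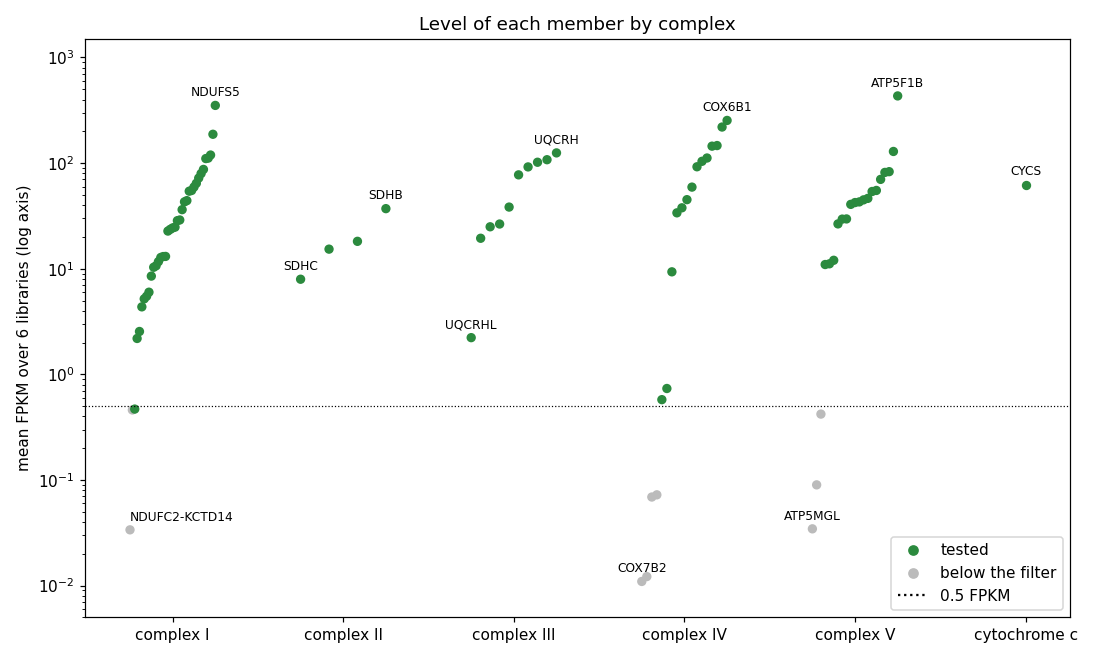
Mean FPKM over the 6 libraries (log axis) of the members drawn, grouped by complex, with tested members in green, members below the filter in grey and the dotted line at 0.5 FPKM. COX6A2, at 0 reads in every library, cannot be drawn on a log axis, and the other members span from under 0.1 to 432 FPKM.

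The 10 members below the filter were mostly genes known from other tissues or read-through loci. COX4I2, COX6A2, COX6B2, COX7B2 and COX8C, tissue forms of complex IV subunits, had 0 to 10 reads per library. COX6A2, the heart and muscle form, had 0 reads in all 6, and 3 reads would have stood for 0.281 to 0.316 FPKM. In contrast, the ubiquitous forms of the same subunits were at 37.7 FPKM (COX7B) to 253 FPKM (COX6B1). NDUFC2-KCTD14, ATP5MF-PTCD1 and ATP5MGL had at most 11 reads in any library, and ATP5S had 72 to 99. NDUFV2 is a core complex I gene, yet its row held 16 to 37 reads per library (0.460 FPKM on average), fewer than the 53.2 reads on average of its pseudogene row NDUFV2P1. How reads were assigned between these rows is not stated by the labels, so the low level of this row was not read as absence of the transcript.

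As a whole, the subunit genes moved little. Summed over all 93 members, levels were 5168, 5067 and 4972 FPKM in control replicates 1 to 3 and 4993, 4950 and 4950.2 FPKM in knockdown replicates 1 to 3. The ranges overlapped, and the knockdown mean was 97.9% of control. Complex I summed to 1763 ± 43.7 FPKM (SD, n = 3) in control libraries and to 1755 ± 5.94 in knockdown libraries (99.5% of control). Complex II summed to 79.5 ± 1.44 and 77.5 ± 0.648 FPKM (97.6%), complex III to 625 ± 15.1 and 606 ± 5.74 (96.9%), complex IV to 1280 ± 25.3 and 1238 ± 15.1 (96.8%) and complex V to 1253 ± 21.9 and 1232 ± 5.94 (98.3%). The FPKM sums of complexes I, III, IV and V overlapped between groups. Those of complex II did not, at 78.2 to 81.0 FPKM in control and 76.8 to 78.1 in knockdown libraries. As shares of all reads, complexes III, IV and V overlapped again, and so did complex II (0.0390 to 0.0405% and 0.0399 to 0.0410%). The read shares of complex I did not overlap and were higher in knockdown (0.3038 to 0.3121% and 0.3132 to 0.3136%). The median log2 fold change of the 83 tested members was -0.03, against 0.0014 over all 14847 genes tested, and 52 of the 83 (62.7%) lay below zero, against 49.7% of all genes. The members also spread less, since their median absolute log2 fold change was 0.06, against 0.10 over all genes. The member median stayed below zero under every scaling tried, from -0.0078 (voom on whole reads, 44 of 83 below zero) to -0.0229 (centring on the median).

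**Figure D2:**
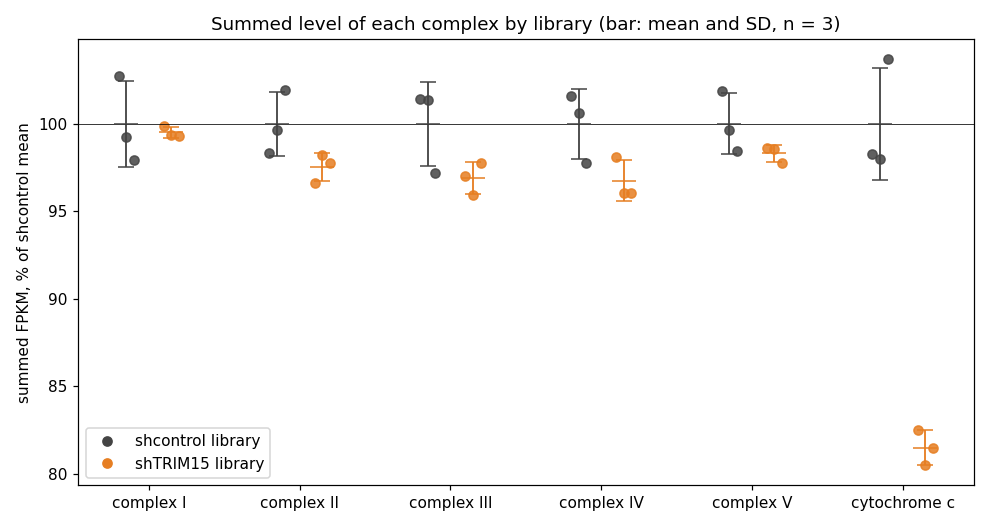
Summed FPKM of each complex in each library, as a percentage of the mean of the 3 control libraries, with points for libraries and bars for the mean and SD (n = 3). Complexes I to V stay between 96.8% and 99.5% of control on average, while cytochrome c stands at 81.5%.

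By limma at adjusted p under 0.05, 14 of the 83 tested members (16.9%) changed, against a background of 19.0% of all genes tested. Higher levels in knockdown were found for 4 members (4.82%; background 8.93%) and lower levels for 10 (12.05%; background 10.1%). Groups did not overlap for 26 members (31.3%, background 37.8%), 6 of them higher and 20 lower. Voom called 19.3% of the tested members, against a background of 28.2% of all genes tested. COX7A1 reached 0.5 FPKM in the knockdown libraries only, so it could enter the test only by being higher there. Leaving it out gave 3 higher and 10 lower of 82. Counts depended on single libraries. Without control replicate 2 or without knockdown replicate 2, 1 member was higher and 6 were lower. Without control replicate 3 the counts were 1 and 12, without knockdown replicate 1 they were 1 and 7, and without knockdown replicate 3 they were 2 and 8. The calls of SDHD, CYCS and ATP5MPL held without any 1 library and under all 11 other settings. Of those 11, the calls of COX5A, UQCRFS1 and NDUFAB1 held under 10, those of ATP5PF and NDUFA4 under 9, that of SDHB under 8, that of NDUFA8 under 7 and those of COX6C, UQCRH and COX7A1 under 5.

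**Figure D3:**
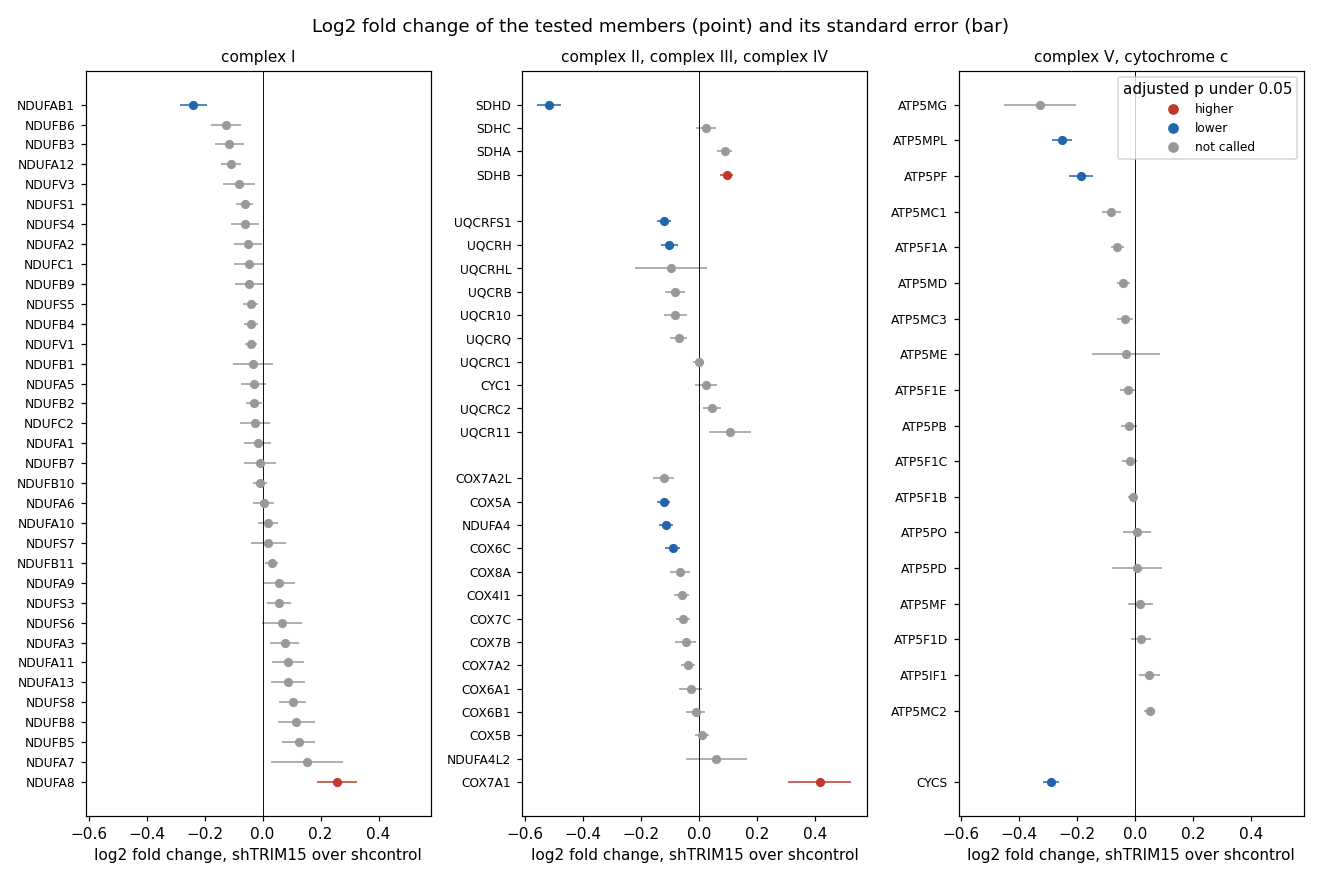
Log2 fold change (knockdown over control, point) and its standard error (bar) of 82 tested members by complex, red where higher, blue where lower and grey where the adjusted p was not under 0.05. Most points lie within 0.1 of zero, SDHD is lowest at -0.52 and COX7A1 highest at 0.42.

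Complex II, succinate dehydrogenase, showed opposite changes among its 4 genes. SDHD, 1 of the 2 membrane anchors that hold the coenzyme Q site, had 18.05, 17.5 and 19.1 FPKM in control replicates 1 to 3 and 12.8, 12.5 and 11.9 FPKM in knockdown replicates 1 to 3. The groups were far apart, and knockdown stood at 68.2% of control (log2 fold change -0.52, SE 0.0416, limma adjusted p = 0.000565). SDHD had the lowest log2 fold change of all 83 tested members. It lies at chr11:112086773-112120013 on the plus strand (ENSG00000204370, GRCh38).

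SDHB, the iron-sulfur subunit, went the other way, with 35.2, 36.2 and 36.0 FPKM in control and 37.7, 38.7 and 38.6 FPKM in knockdown libraries. Every knockdown library was above every control library (log2 fold change 0.10, SE 0.0227, limma adjusted p = 0.0287). That call was lost when any 1 of the 6 libraries was left out, with adjusted p = 0.05 (marginally above the threshold) without knockdown replicate 1, 0.0939 without knockdown replicate 2, 0.0932 without knockdown replicate 3, 0.0709 without control replicate 1, 0.0629 without control replicate 2 and 0.0581 without control replicate 3. SDHA, the flavoprotein that oxidises succinate, had 17.6 ± 0.373 FPKM in control and 18.8 ± 0.249 in knockdown libraries (log2 fold change 0.09, adjusted p = 0.0667), with groups that did not overlap. It passed the test with voom on whole reads (adjusted p = 0.00544). With a correction for gene length, SDHA passed the limma test (adjusted p = 0.026) and SDHB did not (0.0596). SDHC, the other membrane anchor, had 7.87 ± 0.147 and 8.03 ± 0.213 FPKM (0.03, adjusted p = 0.671). The ratio of SDHD to SDHB was 0.512, 0.484 and 0.531 in control and 0.341, 0.323 and 0.310 in knockdown libraries.

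SDHD shares its start region with TIMM8B, a gene on the opposite strand that encodes a chaperone of mitochondrial protein import. TIMM8B had 36.1 ± 2.01 FPKM in control and 37.9 ± 0.974 in knockdown libraries (log2 fold change 0.07, adjusted p = 0.304). The SDHD row also overlaps AP002884.3 on the same strand, a row that held 0 to 2 reads per library. More broadly, 31 members had a protein-coding gene on the opposite strand starting within 1000 bases of their own start, in 32 pairs. Both genes were tested in 25 pairs. The neighbour passed the test in 7 of them and the member in 2 (SDHD, and UQCRH beside LRRC41), and in 0 pairs did both. Over all genes tested, 19.0% passed.

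Cytochrome c, encoded by CYCS, carries electrons from complex III to complex IV and is known to trigger caspase activation when released. CYCS had 67.9, 67.7 and 71.7 FPKM in control and 57.0, 55.6 and 56.3 FPKM in knockdown libraries. No library of either group came near the other, and knockdown stood at 81.5% of control (log2 fold change -0.29, SE 0.0273, limma adjusted p = 0.0010). The gene lies at chr7:25120091-25125361 on the minus strand (ENSG00000172115). The table also lists 40 rows of CYCS pseudogenes, which together held 58.2 reads on average against 5115 for CYCS.

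**Figure D4:**
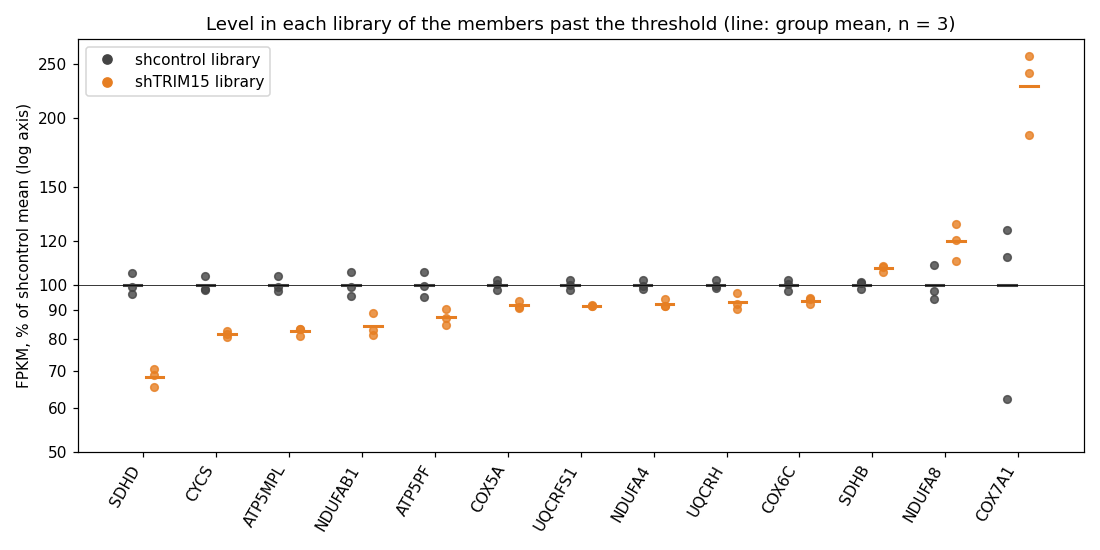
FPKM of 13 members that passed the test in each library, as a percentage of the control mean (log axis), with control libraries in grey, knockdown libraries in orange and lines at the group means (n = 3). SDHD stands at 68.2% of control and CYCS at 81.5%, and COX7A1 reaches 228% from 4 to 16 reads per library.

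In complex I, 2 of 36 tested members were higher and 1 was lower (2 and 3 at an unadjusted p under 0.05, 4 and 1 by voom). The limma calls made up 5.56% (higher) and 2.78% (lower), against 8.93% and 10.1% of all genes tested. Voom called 13.9%, against 28.2%. The median log2 fold change of complex I was -0.01, and turned to 0.0092 with voom, 0.0038 with scaling to the nuclear protein-coding sum and 0.0061 without control replicate 1. Among core genes, NDUFS1, NDUFS3, NDUFS7, NDUFS8 and NDUFV1 did not pass the limma test, and voom called NDUFS8. NDUFS1 (-0.06) and NDUFV1 (-0.04), which carry the NADH-side redox centres, were lower in every knockdown library than in any control library, but their adjusted p values were 0.186 and 0.239. NDUFS3, NDUFS7 and NDUFS8 had log2 fold changes between 0.02 and 0.10.

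Among the 13 NDUFA accessory genes placed in complex I, NDUFA8 was higher and NDUFAB1 lower. NDUFA8, a subunit of the intermembrane-space face, had 71.2, 61.8 and 64.0 FPKM in control and 79.0, 84.4 and 72.4 FPKM in knockdown libraries. The groups came close, at 71.2 against 72.4 (log2 fold change 0.26, SE 0.0683, limma adjusted p = 0.0421). Without knockdown replicate 1 or 2 its adjusted p was 0.109 each time, without control replicate 2 it was 0.117 and without control replicate 3 it was 0.114. NDUFAB1, the mitochondrial acyl carrier protein, had 33.2, 31.1 and 30.0 FPKM in control and 25.5, 26 and 27.9 FPKM in knockdown libraries. Knockdown stood at 84.3% of control without overlap (-0.24, SE 0.0477, adjusted p = 0.0152), and the call was lost without knockdown replicate 1 (adjusted p = 0.0529) or knockdown replicate 2 (0.0537).

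NDUFA12 was the complex I gene nearest the threshold, at 57.1 ± 0.579 and 52.9 ± 2.43 FPKM (-0.11, adjusted p = 0.0701). It passed when only genes with at least 1 FPKM in all 6 libraries were tested (adjusted p = 0.0447). NDUFA7 rested on 6 to 16 reads per library. None of the 11 NDUFB genes passed the test, with log2 fold changes from -0.13 to 0.12, nor did the 6 other accessory genes (NDUFC1, NDUFC2, NDUFS4, NDUFS5, NDUFS6 and NDUFV3), from -0.08 to 0.07. At an unadjusted p under 0.05, limma gave 1 of the NDUFB genes and 0 of the other accessory genes, and voom called 1 (NDUFB5) and 0.

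In complex III, 2 of 10 tested members were lower and 0 higher (3 and 0 at an unadjusted p under 0.05, 2 and 0 by voom), with a median log2 fold change of -0.08. Calls in either direction made up 20.0%, against 19.0% of all genes tested. Voom also called 20.0%, against 28.2%. UQCRFS1, the Rieske iron-sulfur protein, had 40.9, 39.9 and 39.2 FPKM in control and 36.8, 36.6 and 36.6 FPKM in knockdown libraries. The knockdown libraries were almost equal to each other and all below control (log2 fold change -0.12, SE 0.0231, limma adjusted p = 0.0130). With moderated variances that ignore the mean level, its adjusted p was 0.0553. UQCRH, the acidic hinge protein that helps cytochrome c dock, had 127, 132 and 129 FPKM in control and 119.6, 117 and 125 FPKM in knockdown libraries. Groups were separate but close (-0.10, SE 0.0287, adjusted p = 0.0490). The UQCRH call was lost without any 1 library except knockdown replicate 3, with adjusted p = 0.131 without knockdown replicate 1 or 2, 0.0705 without control replicate 1, 0.140 without control replicate 2 and 0.0961 without control replicate 3.

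CYC1, the cytochrome c1 haem protein, had 107 ± 5.48 and 109 ± 1.78 FPKM (0.03, adjusted p = 0.702). Its sign turned to -0.02 without control replicate 3. The core proteins UQCRC1 and UQCRC2, which face the matrix, had log2 fold changes of -0.0012 and 0.05. UQCRB, UQCR10 and UQCRQ, small accessory subunits, lay between -0.08 and -0.07 and did not pass the test. UQCR11, another accessory subunit, lay above zero at 0.11 and did not pass either (adjusted p = 0.365). UQCRHL, a single-exon copy of UQCRH, held 66 to 107 reads per library, or 1.29 to 2.13% of the summed FPKM of both genes, and reads of the 2 copies could be mixed.

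In complex IV, 3 of 12 ubiquitous members were lower and 0 higher by limma (4 and 0 at an unadjusted p under 0.05, 2 and 0 by voom). Of these 12, 11 lay below zero, or 10 under scaling by quantiles, scaling to the sum of nuclear protein-coding genes, or voom. COX5A, an early-assembling subunit, had 98.0, 96.4 and 94.3 FPKM in control and 90.02, 87.7 and 87.4 FPKM in knockdown libraries. All knockdown libraries were lower (log2 fold change -0.12, SE 0.0224, limma adjusted p = 0.0113), but the adjusted p was 0.0605 with variances that ignore the mean level. COX5B, which binds zinc, was at 0.01 (adjusted p = 0.815).

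NDUFA4, once counted in complex I, had 62.9, 61.2 and 60.6 FPKM in control and 56.4, 56.3 and 58.03 FPKM in knockdown libraries. Groups did not overlap (-0.11, SE 0.0236, adjusted p = 0.0181). The NDUFA4 call was lost without knockdown replicate 1 (adjusted p = 0.0645), knockdown replicate 2 (0.0655) or control replicate 2 (0.0519). COX6C, a membrane subunit, had 35.7, 35.0 and 34.1 FPKM in control and 32.9, 33.0 and 32.2 FPKM in knockdown libraries (-0.09, SE 0.0254, adjusted p = 0.0481). Although the COX6C groups did not overlap, the call held only without control replicate 3. Its adjusted p was 0.105, 0.0985 and 0.143 without knockdown replicates 1, 2 and 3, 0.114 without control replicate 1 and 0.122 without control replicate 2.

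The subunit forms of complex IV were read side by side. COX4I1, the form used in most tissues, had 106 ± 2.86 and 102 ± 1.87 FPKM (-0.06, adjusted p = 0.158), with COX4I2 at 0 or 1 read. COX7A2, the liver-type form, had 113 ± 3.13 and 110 ± 0.828 FPKM (-0.04, adjusted p = 0.333). COX7A2L, a related protein that joins complexes III and IV into supercomplexes, had 9.78 ± 0.335 and 8.91 ± 0.211 FPKM (-0.12, adjusted p = 0.0607). COX7A1, the heart and muscle form, had 8, 7 and 4 reads in control and 16, 13 and 16 reads in knockdown libraries. Exact Poisson 95% intervals, which cover counting error only, ran from 1.09 to 15.8 reads over the control libraries and from 6.92 to 26 over the knockdown libraries. Its values were 0.440, 0.394 and 0.219 FPKM against 0.843, 0.654 and 0.906 (0.42, SE 0.109, adjusted p = 0.0399). The COX7A1 call was lost without any 1 library, with adjusted p = 0.114, 0.0575 and 0.123 without knockdown replicates 1, 2 and 3, and 0.0568, 0.0795 and 0.102 without control replicates 1, 2 and 3. COX7A1 made up 0.198 to 0.376% of the summed FPKM of COX7A1 and COX7A2 in control and 0.585 to 0.821% in knockdown libraries. NDUFA4L2, a hypoxia-induced relative of NDUFA4, had 26 to 47 reads per library and a log2 fold change of 0.06 (adjusted p = 0.749).

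In complex V, 2 of 18 tested members were lower and 0 higher by limma (5 and 1 at an unadjusted p under 0.05, 3 and 0 by voom). The limma calls made up 11.1%, against 19.0% of all genes tested, and voom called 16.7%, against 28.2%. ATP5MPL had 11.7, 11.9 and 12.5 FPKM in control and 9.98, 10.0 and 9.73 FPKM in knockdown libraries. Its groups were well separated at 82.5% of control (log2 fold change -0.25, SE 0.0339, limma adjusted p = 0.00347), at chr14:103912288-103928269 on the minus strand (ENSG00000156411). ATP5PF, coupling factor 6 of the peripheral stalk, had 47.5, 44.9 and 43.0 FPKM in control and 40.9, 38.2 and 39.3 FPKM in knockdown libraries. Knockdown stood at 87.4% of control (-0.19, SE 0.0415, adjusted p = 0.0219). The ATP5PF call was lost without knockdown replicate 2 (adjusted p = 0.0713), knockdown replicate 3 (0.0700) or control replicate 2 (0.0615). ATP5MG, subunit g of the membrane part, had 11.1, 13.2 and 13.2 FPKM in control and 10.7, 10.9 and 7.82 FPKM in knockdown libraries. Despite a log2 fold change of -0.33, it did not pass the test (SE 0.124, adjusted p = 0.115), but it did with voom on whole reads.

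None of the 5 genes of the F1 head passed the limma test, 1 was lower at an unadjusted p under 0.05, and voom called 0. ATP5F1B had 434 ± 3.29 FPKM in control and 431 ± 2.08 in knockdown libraries (-0.01, adjusted p = 0.724), and its sign turned with scaling. ATP5F1A, the alpha subunit, had 43.9 ± 0.836 and 42.0 ± 0.626 FPKM (-0.06, adjusted p = 0.120). The 3 genes ATP5MC1, ATP5MC2 and ATP5MC3 encode the same c-ring protein behind different import signals. ATP5MC1 gave 30.3, 29.4 and 29.7% of their summed FPKM in control and 28.7, 28.9 and 28% in knockdown libraries. ATP5MC2 gave 30.8, 31.6 and 31.8% against 33.3, 32.5 and 33.3%, and ATP5MC3 gave 38.5 to 39.0% against 38 to 38.8%. ATP5MC1 was lower (-0.08, adjusted p = 0.121) and ATP5MC2 higher (0.05, adjusted p = 0.135) in all 3 knockdown libraries, and neither passed the test. ATP5IF1, the natural inhibitor of the enzyme, was at 0.05 (adjusted p = 0.417).

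Genes that act beside the nuclear subunits were counted in lists written with earlier results of these data in view. Over all genes tested, limma called 8.93% higher and 10.1% lower, and voom called 28.2% in either direction. Of the 13 subunits encoded in mitochondrial DNA, 11 were lower and 0 higher by limma (median log2 fold change -0.13; 12 and 0 both at an unadjusted p under 0.05 and by voom), but with quantile scaling 1 was lower and the median was 0.0. The count of lower genes was 7 when either control replicate 2 or knockdown replicate 2 was left out, 1 with no filter on low values and 5 with no variance trend. Their summed level was 40610 to 41200 FPKM in control and 37100 to 38210 in knockdown libraries. Of 16 complex I assembly factors, 1 was higher (NDUFAF4, 0.19) and 0 lower (2 and 1 at an unadjusted p under 0.05, 2 and 0 by voom). None of 4 complex II assembly factors passed (1 at an unadjusted p under 0.05, 0 by voom), with log2 fold changes from 0.05 to 0.15. Of 6 complex III assembly factors, UQCC1 was higher (0.17), and LYRM7 (-0.30) and TTC19 (-0.21), which serve the Rieske protein, were lower.

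Among 24 tested complex IV assembly factors, 2 were higher (8.33%) and 3 lower (12.5%), against 8.93% and 10.1% of all genes tested. HIGD1A, a hypoxia-induced protein that binds complex IV, had 70.1 ± 2.98 FPKM in control and 47.8 ± 2.17 in knockdown libraries (log2 fold change -0.54, limma adjusted p = 0.000505). SCO1, a copper chaperone, and CMC1 were lower at -0.24, and COA7 was higher at 0.13. Of 4 tested complex V assembly factors, ATPAF1, which helps build the F1 head, was lower (-0.23). In the synthesis of coenzyme Q, 3 of 13 genes were higher (COQ8A at 0.25, COQ9 and COQ10B at 0.18) and 0 lower (6 and 1 at an unadjusted p under 0.05, 5 and 1 by voom). Of 13 enzymes of the tricarboxylic acid cycle, 1 was higher and 2 were lower, IDH3A (-0.24) and DLD (-0.11), and the list median was 0.02 (4 higher and 3 lower at an unadjusted p under 0.05). The limma calls made up 23.1% of these enzymes, against 19.0% of all genes tested.

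Of 11 tested genes in a list of regulators of respiratory genes, 3 were higher (ESRRA at 0.21, POLRMT at 0.17 and PPRC1 at 0.16) and 1 lower. Those shares were 27.3% and 9.09%, against 8.93% and 10.1% of all genes tested. The list includes POLRMT and TFAM, which act on mitochondrial DNA and not on nuclear genes. TFAM, which packages mitochondrial DNA and takes part in its transcription, was the lower gene. It had 19.0 ± 0.972 FPKM in control and 13.4 ± 0.700 in knockdown libraries (-0.47, adjusted p = 0.00135). NRF1 (-0.08, adjusted p = 0.369), GABPA (0.06, 0.544) and YY1 (-0.01, 0.857), whose motifs were searched above, did not pass the test.

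**Figure D5:**
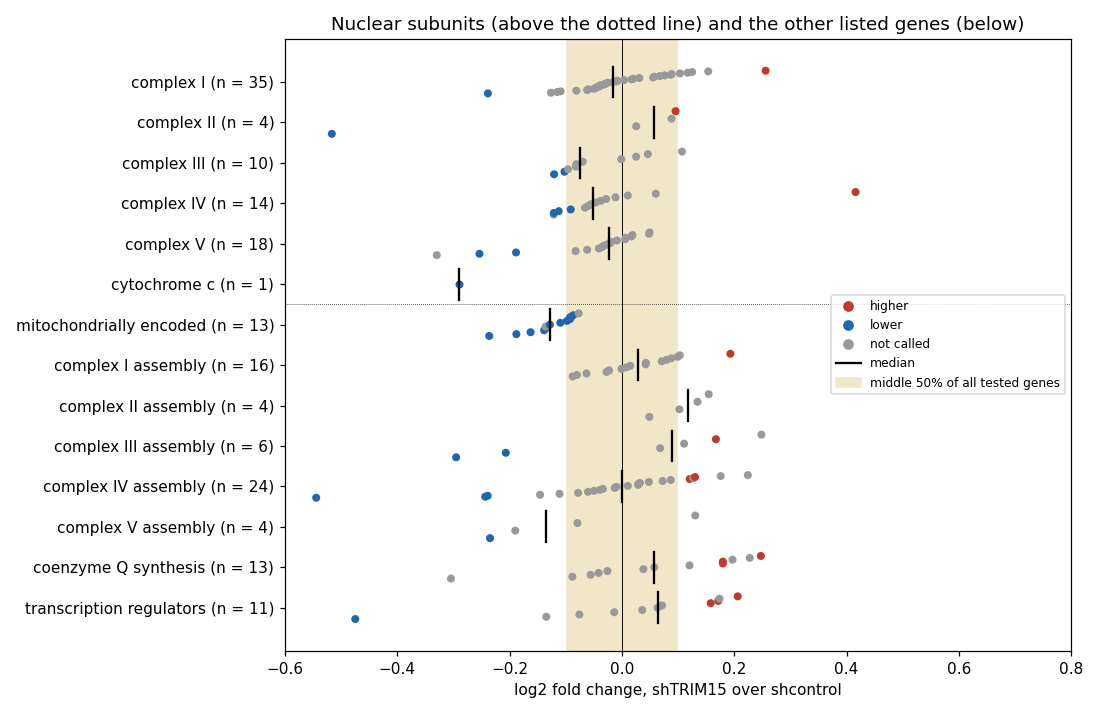
Log2 fold change of 82 tested nuclear subunit genes by complex (above the dotted line) and of listed genes beside them (below), with red for higher, blue for lower, grey for not called, black lines for medians and shading for the middle 50% of all tested genes. Subunits encoded in mitochondrial DNA have a median of -0.13. With quantile scaling, which can remove a shift shared by the most abundant genes, that median is 0.0. The medians of complexes I to V lie between -0.08 and 0.06.

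Reads of overlapping or near-identical genes limit some of these values, since neither the labels nor the file header state the counting step. A gene on the same strand overlapped 34 members, with a median level of 19.0 FPKM, of which 28 were tested and 1 (SDHD) passed the test. The 59 members without one had a median of 38.3 FPKM, and 13 of their 55 tested members passed. Over all genes tested, with or without such an overlap, 19.0% passed. Whether overlap bears on passing was not tested. Pseudogene rows named after a member existed for 47 members, 200 rows in all. For SDHA these rows held 480 reads on average, against 2796 for SDHA itself.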

How the data were processed

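Transcripts of 6 Huh7 libraries (3 shcontrol, 3 shTRIM15) were measured by RNA sequencing of poly-A-enriched RNA with a strand-marking kit, per the labels' protocols. The authors deposited FPKM values per gene and library, with a gene length column in bases, per the file headers. The aligner, the counter and the use of strand are not given in the sources used here. The submitters' processing notes list build mm10, a mouse build, but all 58735 rows match human GENCODE 29 in identifier, position and strand, so coordinates are given on GRCh38. FPKM times gene length gave whole reads, from 17332508 to 19556855 per library, and the library size behind the scaling lay -0.370 to -0.359% (control) and 1.04 to 1.27% (knockdown) away from those sums.

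Tests used log2(FPKM + 1), a scale on which changes near 1 FPKM are understated. The 14847 genes reaching 0.5 FPKM in 3 of 6 libraries entered a two-sided limma 3.58.1 test in R 4.3.3 (linear model of group, variances moderated along the mean level). Their p-values were adjusted together by Benjamini-Hochberg, and adjusted p under 0.05 was the threshold. Unless another tool is named, adjusted p, fold changes and SE come from this fit. The procedure was also run on simulated counts with the same extra spread between libraries for all genes. That setting is simpler than these data, so the run gives no error rate for them. Summaries used Python 3.11.15, pandas 2.3.3 and SciPy 1.17.1.

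The members and the 13 gene lists were chosen with earlier results of these data known. Some items are not reported here by name, though counts, sums and medians include them. Genes were named by rule: every member that passed, the most and least abundant tested member per complex, sets of subunit forms, the 3 members nearest the threshold, catalytic subunits, and up to 4 called genes per list. Other genes named (among them ATP5MG, ATP5IF1, ATP5S, the tested core and small accessory subunits, TIMM8B, NRF1, GABPA and YY1) were chosen after their values were seen. Alternatives covered pseudocounts of 0.1 and 0.01, filters, scalings, variance model, voom, gene length, a replicate block and leaving out each library. Promoter windows were taken from RefSeq (GRCh38.p14) and matched by gene ID or symbol.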

Additional observations from a re-analysis of the deposited data

How the results depend on the processing

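Of the 14 calls among members, those of SDHD, CYCS and ATP5MPL held under all 11 other settings and without any 1 library. The count of higher members, 4, was 2 without a filter on low values and 2 without a variance trend, and ranged from 1 to 3 when 1 library was left out. The count of lower members, 10, was 4 without a variance trend and ranged from 6 to 12 when 1 library was left out. The count over all tested genes, 2824, ranged from 1770 to 2339 when 1 library was left out. With the replicate number as a block, 1 member was higher and 6 were lower. The labels do not say whether libraries with the same number were paired. Deviations of same-numbered libraries correlated at only 0.0125, 0.0086 and 0.0133, although each library correlated best with its own number. ATP5F1B changed sign to 0.0291 with quantile scaling, to 0.0075 with scaling to the nuclear protein-coding sum and to 0.01 with voom, and CYC1 ranged from -0.0178 (without control replicate 3) to 0.0491 when 1 library was left out. With voom, 6 members were higher and 10 lower (19.3%). Over all genes tested, voom called 2360 higher and 1822 lower (28.2%). NDUFA4 counted with complex I gave that complex 2 lower members in place of 1. The cause of these shifts was not tested. With 3 libraries per group and fold changes mostly under 0.1 on the log2 scale, members that did not pass the test are not shown to be equal between groups.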
